A study of Homo sapiens with 3 samples.

Results

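The kallikrein locus on chromosome 19 was examined by RNA-seq in 3 libraries of UM-UC-3 cells, a human line established from a bladder carcinoma, through its 10 neighbouring serine protease genes KLK5, KLK6, KLK7, KLK8, KLK9, KLK10, KLK11, KLK12, KLK13 and KLK14. They were taken by gene symbol from the 50867 genes of the deposited table, each symbol matching 1 row. The choice was made with the counts and folds of these same libraries known, so the comparison of the hairpin libraries with the control is a description for these genes and carries no test. All 3 libraries are polyA+ RNA of cells infected with lentivirus and held under puromycin for 2 weeks to give stable lines. The group shControl (n = 1) expressed a scramble hairpin, and the group shBLACAT2 (n = 2) holds 1 library for each of 2 hairpins that target BLACAT2, a long non-coding RNA, called shBLACAT2#1 and shBLACAT2#2 after their labels. With 1 library per hairpin and 1 control, and no label that names repeated cultures, differences are between libraries. Nothing in the labels says whether a line was clonal.

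Kallikrein-related peptidases are secreted proteases made as inactive precursors, which other proteases switch on by removing a short propeptide. In stratified epithelium KLK5 and KLK7 cut the proteins that hold the outermost cells together, and the Kazal-type inhibitor encoded by SPINK5 restrains them. The genes lie side by side in one cluster, and several of them are known to be expressed together in epithelial tumours.

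Library totals were 16424422 counts for shControl, 17670199 for shBLACAT2#1 and 16216947 for shBLACAT2#2. The targeted RNA, listed as LINC00958 (chromosome 11, 12961842 to 12989548), had 938, 816 and 1062 counts in that order. Scaled for library size this was 0.735 of the control (95% counting interval 0.668 to 0.808) with shBLACAT2#1 and 0.996 of it (0.911 to 1.09) with shBLACAT2#2. The depletion that the label names was therefore not seen with shBLACAT2#2, and the directions below are those of libraries as labelled. Keratins and EPCAM, genes of epithelium, were well counted in all 3 libraries (KRT7 19944, 20236 and 13229 counts), but the urothelial markers were mixed. UPK1A and UPK3A had at most 1 count and KRT20 had none, while UPK1B had 306, 2311 and 923 counts (6.38 and 2.65 times the control), UPK2 35, 108 and 104 (2.61 and 2.61 times) and the urothelial factor gene GATA3 538, 1389 and 1192. Of 14 such markers 11 passed the filter described below. Of these, UPK1B and UPK2 were more than 2-fold higher with both hairpins, beside 5.29% of all tested genes. None was lower by that size, beside 4.5%. KRT5 (5590, 6605 and 1707 counts) was 0.998 and 0.269 times the control, and KRT19 (9382, 23999 and 8677) 2.16 and 0.813 times. Markers of leukocytes, endothelium and fibroblasts were sparse. The summed counts of 8 leukocyte markers were 51, 28 and 326, of which ITGAM gave 19, 6 and 288, while PTPRC had 0, 3 and 4. Those of 6 endothelial markers were 47, 68 and 144, and those of 6 fibroblast markers 45, 4 and 10. The part of these in the kallikrein values was not tested.

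Kallikrein transcripts were far more abundant in both libraries labelled with BLACAT2 hairpins, and nearly all of the difference came from KLK5, KLK6, KLK7, KLK8 and KLK10. The 10 genes together had 1036 counts in the control, 11104 with shBLACAT2#1 and 8324 with shBLACAT2#2. As CPM of the unscaled library total this was 63.1 (exact binomial 95% interval 59.3 to 67.0), 628 (617 to 640.2) and 513 (502 to 524). Scaled with TMM factors (edgeR's correction for library composition), the sum was 9.06 times the control with shBLACAT2#1 (interval 8.50 to 9.66) and 7.07 times with shBLACAT2#2 (6.62 to 7.55). Averaged over the hairpins the log2 fold of the sum was 2.998 ± 0.25 (SD, n = 2). In bulk RNA, more expressing cells and more RNA per cell cannot be told apart. All intervals below are of counting error alone, since each value rests on single libraries. No molecular identifiers were used to count reads, so duplicate reads could make these intervals too narrow.

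**Figure D1:**
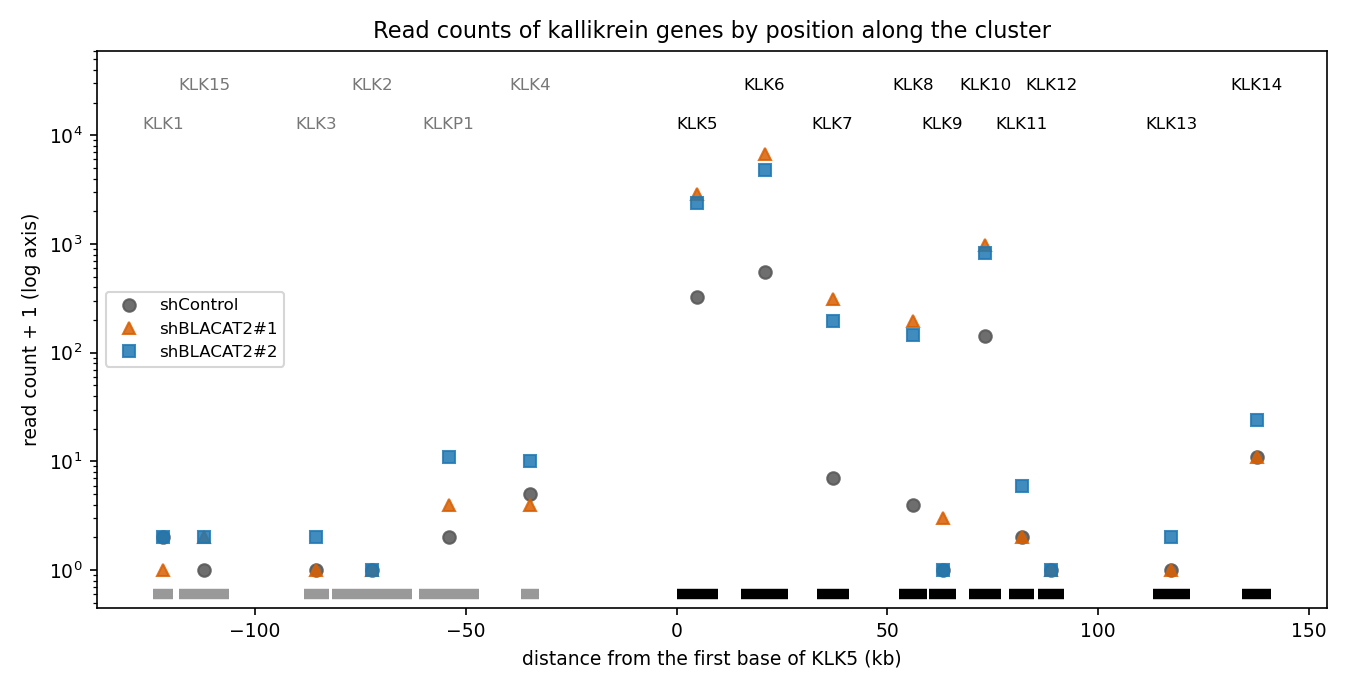
Read counts plus 1 (log axis) of all kallikrein genes of the cluster, by distance in kb from the first base of KLK5. Symbols are the 3 libraries, black bars below are the 10 members and grey bars the other kallikreins. KLK5, KLK6, KLK7, KLK8 and KLK10 are well above the control with both hairpins, while KLK9 between KLK8 and KLK10 has at most 2 counts. Most exonic bases of KLK9 are shared with another feature, so its counts do not bound its level.

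The members cover 141 kb (hg38, chromosome 19, 50943303 to 51084245), all are protein-coding, and all lie on the minus strand in GENCODE release 29. At the low-coordinate end lies KLK5 (50943303 to 50953093), a trypsin-like protease that can activate other kallikreins. It had 323 counts in the control, 2891 with shBLACAT2#1 and 2369 with shBLACAT2#2. Both hairpin libraries were well above the control, at 7.56 times (6.74 to 8.51) and 6.45 times (5.74 to 7.27).

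Next along the cluster is KLK6 (50958631 to 50969673), also trypsin-like and known from the nervous system as well as from carcinomas. It was the most abundant member in every library, with 552, 6726 and 4754 counts. Its scaled ratio over the control was 10.3 (9.44 to 11.3) with shBLACAT2#1 and 7.57 (6.93 to 8.29) with shBLACAT2#2.

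KLK7 (50976482 to 50984099) encodes a chymotrypsin-like enzyme of the skin barrier. It had 6 counts in the control, 310 with shBLACAT2#1 and 193 with shBLACAT2#2. The ratios were 43.7 (19.8 to 119.9) and 28.3 (12.8 to 78.05), and the width of the intervals comes from the 6 control counts. KLK8 (50996007 to 51002711), a protease of skin and hippocampus, had 3, 195 and 146 counts. Its ratios were 54.9 (18.5 to 269) and 42.8 (14.4 to 210.0). With counts this low in the control, neither ratio can be given a size beyond its interval, and KLK7 and KLK8 cannot be ordered.

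KLK10 (51012739 to 51020175), first described as a gene of normal epithelial cells, had 141 counts in the control, 969 with shBLACAT2#1 and 833 with shBLACAT2#2. The ratios of 5.81 (4.86 to 6.98) and 5.20 (4.34 to 6.26) were the smallest of the 5 genes. Its intervals did not overlap those of KLK7 or KLK8 with either hairpin. They did overlap those of KLK5.

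**Figure D2:**
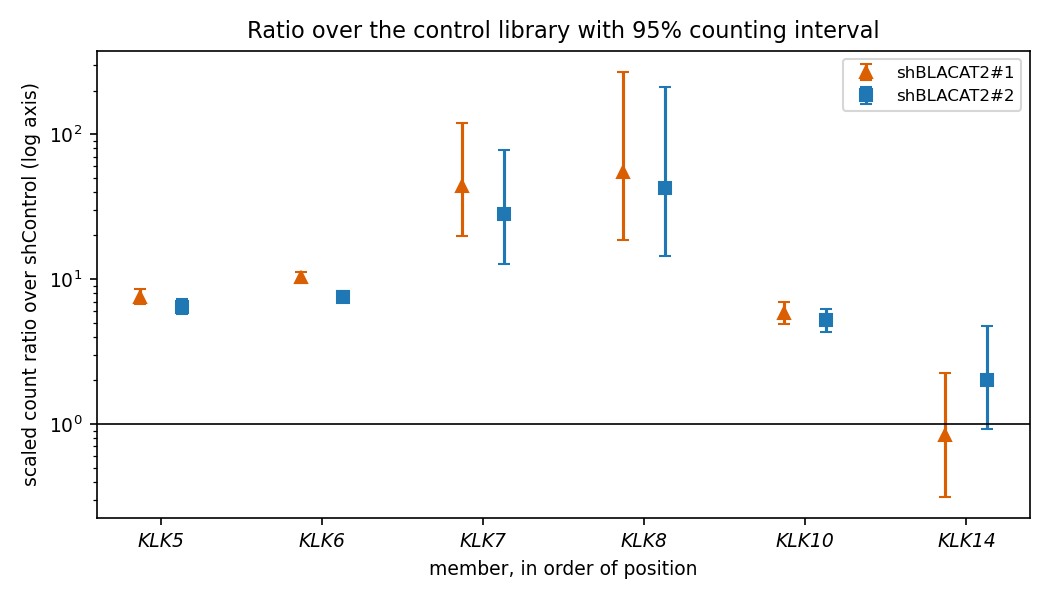
Scaled count ratio over shControl (log axis) for 6 members in order of position, with bars for the 95% counting interval. KLK5, KLK6 and KLK10 lie between 5.20 and 10.3, KLK7 and KLK8 between 28.3 and 54.9 with wide intervals, and the intervals of KLK14 include 1.

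The other 5 members stayed close to no reads. KLK9 (51003111 to 51009634), which begins 399 bases beyond KLK8, had 0, 2 and 0 counts. KLK11 (51022216 to 51028039) had 1, 1 and 5, KLK12 (51029092 to 51035230) had none in any library, and KLK13 (51056206 to 51065114) had 0, 0 and 1. A library with 0 counts allows a level of up to 0.198 CPM in the control, 0.167 with shBLACAT2#1 and 0.174 with shBLACAT2#2. This is the level of 3 counts on the scaled library size. For KLK9 it sets no ceiling, because 93.7% of its exonic bases are shared with the feature CTC-518B2.8, described below. How shared reads were counted is not stated. No fold is given for KLK9, KLK12 and KLK13, which were at or under 3 counts everywhere. For KLK11 the 5 counts with shBLACAT2#2 against 1 in the control gave a ratio of 4.40 with an interval of 0.492 to 208.

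KLK14 (51077495 to 51084245), a trypsin-like enzyme at the far end of the members, was the exception among these, with 10 counts in the control, 10 with shBLACAT2#1 and 23 with shBLACAT2#2. The ratios were 0.845 (0.316 to 2.26) and 2.02 (0.926 to 4.76), so a difference from the control was not detectable at this depth. Between the hairpin libraries the ratio of shBLACAT2#2 over shBLACAT2#1 was 2.39 (1.10 to 5.63).

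A filter on a mean of at least 1 CPM kept KLK5, KLK6, KLK7, KLK8 and KLK10 and dropped the other 5. KLK7 and KLK8 were at 0.395 and 0.198 CPM in the control, so they passed only through the hairpin libraries. With a prior count of 2 on log2 CPM, all 5 genes that passed exceeded the control at least 2-fold with either hairpin, a size that 5.29% of 15132 tested genes reached. Because the members were chosen from this contrast, nothing is read from that count.

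**Figure D3:**
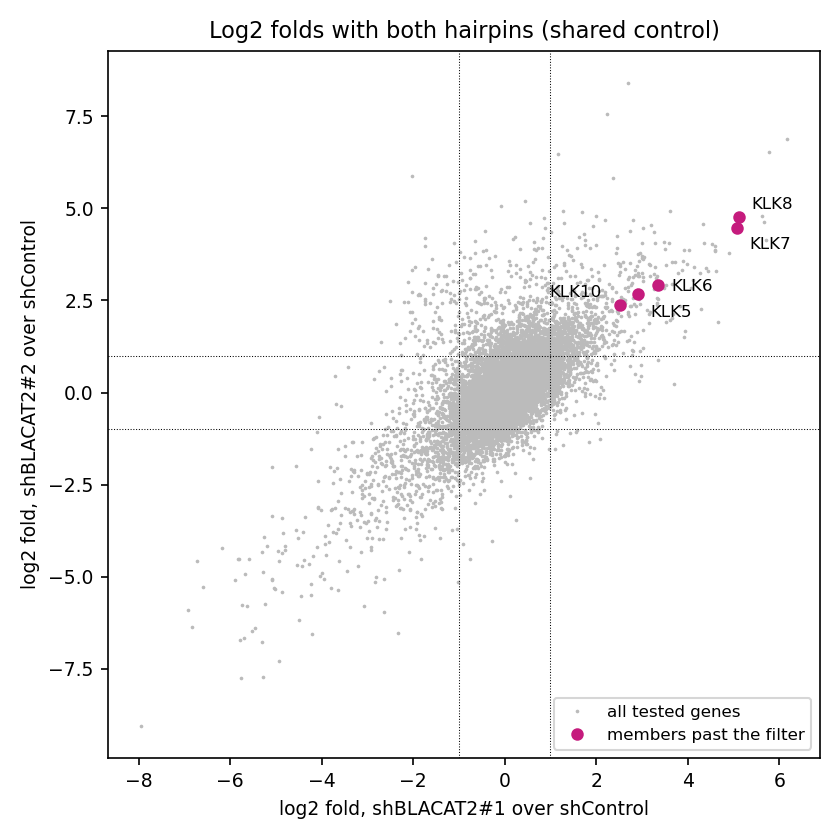
Log2 folds over shControl with shBLACAT2#1 (x axis) and shBLACAT2#2 (y axis) for 15132 tested genes (grey) and the 5 members past the filter. Dotted lines mark 2-fold. Both axes share the one control library, which by itself pulls points towards the diagonal. KLK7 (5.08 and 4.46) and KLK8 (5.12 and 4.76) lie farthest out of the members.

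Levels between genes were compared on the deposited FPKM, which is a count per gene length and library total. In the control the order was KLK6 (9.43 FPKM), KLK5 (6.75), KLK10 (1.09), KLK14 (0.460), KLK7 (0.0639), KLK8 (0.0442) and KLK11 (0.00900), with the other 3 at 0. With shBLACAT2#1 it was KLK6 (106.8), KLK5 (56.1), KLK10 (6.94), KLK7 (3.07), KLK8 (2.67), KLK14 (0.428), KLK9 (0.128) and KLK11 (0.00836). With shBLACAT2#2, KLK6 (82.2), KLK5 (50.1) and KLK10 (6.50) again came first, KLK8 (2.18) and KLK7 (2.08) had nearly equal FPKM, and KLK14 (1.07) followed. The first 3 places were thus held by the same genes in the same order in all 3 libraries, and KLK14 stood ahead of KLK7 and KLK8 in the control and behind them with both hairpins.

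Set among the 19690 protein-coding genes of the table, KLK6 stood at place 3058 by FPKM in the control, 131 with shBLACAT2#1 and 174 with shBLACAT2#2. KLK5 stood at place 4085, 326 and 358. These secreted proteases were thus among the 2% of highest protein-coding genes in the hairpin libraries (FPKM percentiles 99.3 and 99.1 for KLK6, 98.3 and 98.2 for KLK5). KLK10 stood at percentile 50.2, 78.5 and 76.1. KLK7 (28.7, then 63.0 and 55.4) and KLK8 (26.6, then 60.5 and 56.0) were below the middle of the range in the control and above it with the hairpins.

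**Figure D4:**
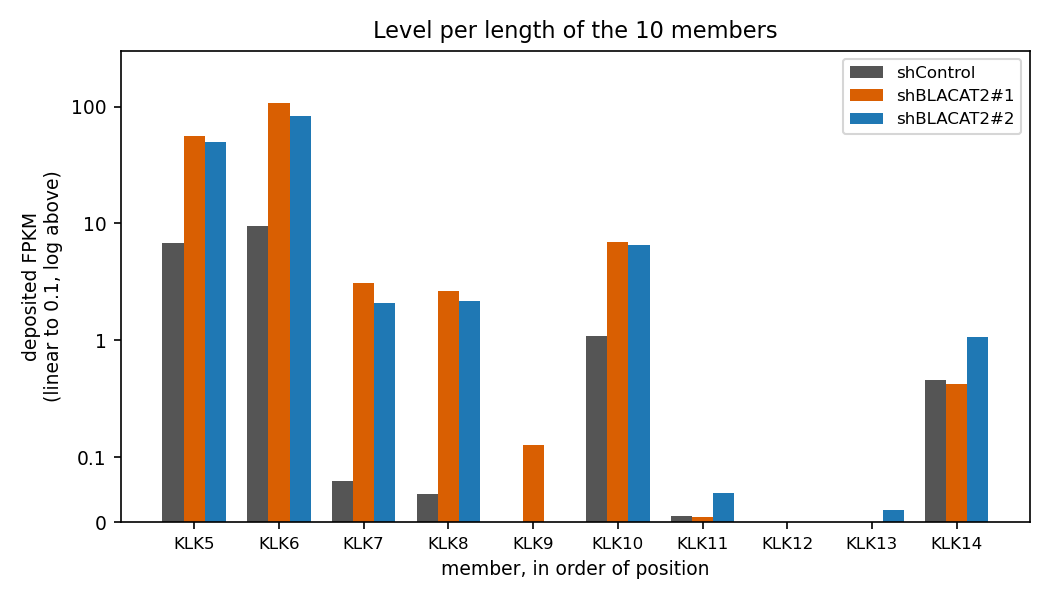
Deposited FPKM of the 10 members in the 3 libraries (axis linear to 0.1 and logarithmic above). KLK6 and KLK5 exceed 50 FPKM with both hairpins, and KLK12 has no bar because it had no counts.

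KLK6 gave 53.3% of the members' counts in the control, 60.6% with shBLACAT2#1 and 57.1% with shBLACAT2#2, and KLK5 gave 31.2%, 26.04% and 28.5%. The share of KLK10 was smaller with the hairpins, at 13.6%, 8.73% and 10.0%. The shares of KLK7 (0.579%, 2.79% and 2.32%) and KLK8 (0.290%, 1.76% and 1.75%) were larger with both hairpins than in the control.

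Within the hairpin pair, the 5 abundant members were all lower in shBLACAT2#2 than in shBLACAT2#1, as were 49.7% of all tested genes. The scaled ratio of shBLACAT2#2 over shBLACAT2#1 was 0.648 (0.539 to 0.778) for KLK7, 0.736 (0.709 to 0.764) for KLK6, 0.779 (0.624 to 0.971) for KLK8, 0.853 (0.807 to 0.901) for KLK5 and 0.895 (0.815 to 0.983) for KLK10. All 5 intervals lie under 1 on counting error, with no replicate of either hairpin. The intervals of KLK6 and KLK5 do not overlap, so the step between the hairpin libraries was not the same for these neighbours. The differences between hairpins were small beside the distance of both from the control.

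The rest of the cluster, towards lower coordinates, showed no comparable level. KLK1, KLK15, KLK3 (which encodes prostate-specific antigen), KLK2, the pseudogene KLKP1 and KLK4 had 6 counts in all in the control, 7 with shBLACAT2#1 and 22 with shBLACAT2#2. KLKP1 (1, 3 and 10) and KLK4 (4, 3 and 9) held most of the counts with shBLACAT2#2. None of these 6 other kallikrein genes had more than 10 counts in any library. By level, the edge of the abundant genes fell between KLK4 and KLK5 on this side and between KLK10 and KLK11 on the other. Few counts were listed for KLK9 inside. Summed, the 6 other kallikreins were 0.986 (0.284 to 3.55) and 3.22 (1.27 to 9.72) times the control. KLK9, KLK11, KLK12, KLK13 and KLK14 summed were 0.999 (0.413 to 2.46) and 2.32 (1.12 to 5.14) times. Counts this low cannot place an edge of the difference from the control.

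Within 250 kb of the members there were 14 protein-coding genes without a kallikrein name, 4 of them without a count, and 5 passed the filter. The 14 include CTC-518B2.8, which lies inside the span of the members and shares exons with KLK8 and KLK9. None of the 5 that passed was 2-fold above the control with both hairpins, and 1 was below it by that size. C19orf48, on the KLK1 side, had 1195, 1935 and 3540 counts (ratios 1.37 and 2.61), and CTU1, an enzyme gene of tRNA modification next to KLK14, had 84, 124 and 167 (1.25 and 1.75). VSIG10L had 112, 136 and 107 counts (1.03 and 0.840) and CLEC11A 20, 42 and 53 (1.77 and 2.33). IGLON5, a cell adhesion gene, differed in the other direction, with 477, 28 and 10 counts, 20.2-fold and 54.2-fold lower. SHANK1 did not pass the filter and had 28, 11 and 8.

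Of 6 other features that overlap members, 4 carried reads. CTB-147C22.6 (ENSG00000279676, 50962197 to 50962781) lies on the strand of KLK6 and inside it, without touching its annotated exons. It had 2 counts in the control, 64 with shBLACAT2#1 and 41 with shBLACAT2#2, ratios of 27.0 (7.19 to 228) and 18.0 (4.68 to 154). CTB-147C22.8 (ENSG00000269495), annotated antisense across KLK5 and KLK6, had 0, 16 and 10, which is at least 4.51-fold and 2.93-fold higher than a control of 3 counts. CTB-147C22.9 (ENSG00000267879), the long antisense gene that runs from KLK6 to KLK9, had 14, 17 and 22, with ratios of 1.03 (0.476 to 2.25) and 1.38 (0.676 to 2.92). The kit keeps strand, but whether the counting used it is not given in the sources used here, so reads in exons shared with CTB-147C22.8 are uncertain. These are 202 of the 1653 exonic bases of KLK5 (12.2%) and 401 of the 1976 of KLK6 (20.3%). CTB-147C22.6 and CTB-147C22.8 thus had more counts with both hairpins, as KLK5 and KLK6 did, and the intervals of CTB-147C22.9 included 1.

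The fourth, CTC-518B2.8 (ENSG00000269741), is a protein-coding feature that shares exons with both KLK8 and KLK9. It had 2, 5 and 18 counts, 2.11 (0.346 to 22.2) and 7.92 (1.90 to 70.3) times the control. With shBLACAT2#2 it was thus above the control, as KLK8 was. The step between the hairpin libraries was the reverse of that of KLK8, with a ratio of 3.75 (1.34 to 12.9) for shBLACAT2#2 over shBLACAT2#1. In GENCODE release 29 it covers 93.7% of the 840 exonic bases of KLK9 and 40.1% of the 1865 of KLK8 on the same strand, which leaves 53 bases to KLK9 alone. How reads in shared exons were counted is not stated, so the counts of KLK8 and KLK9 are uncertain to that extent. The counts of both features that cover KLK9 exons were thus at most 18 in any library.

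Sharing of reads among the members themselves was checked on their sequences. Of all stretches of 50 bases in the GENCODE transcripts of each member, 0% occurred in a transcript of another kallikrein, on either strand. In any other gene, 0% to 1.02% occurred for KLK7, KLK11, KLK13 and KLK14, 5.63% to 15.4% for KLK5, KLK6, KLK10 and KLK12, which have antisense partners, 34.1% for KLK8 and 87.9% for KLK9. Reads of this length would thus separate KLK5, KLK6, KLK7, KLK8 and KLK10 from one another.

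Start regions of the members are printed to set abundant members beside members with few counts. RefSeq windows on GRCh38.p14, from 250 bases before to 50 bases from a start, were found for 9 of the 10 members (16 windows, of which those of a gene can overlap); KLK8 had no entry. The first window of each of 6 genes is shown 5′ to 3′, first 4 abundant members and then KLK9 and KLK12. Capitals mark matches, on either strand, to GGGCGG (the GC box of SP and KLF factors), AGGAAG (ETS factors), CAGGTG (the box bound by SNAI and ZEB repressors), AACCGG (grainyhead-like factors), the TATA box TATAAA, the AP-1 site TGANTCA, the hormone receptor motif AGAACA and the retinoid receptor motif AGGTCA.
KLK5, chr19:50952989-50953288, minus strand: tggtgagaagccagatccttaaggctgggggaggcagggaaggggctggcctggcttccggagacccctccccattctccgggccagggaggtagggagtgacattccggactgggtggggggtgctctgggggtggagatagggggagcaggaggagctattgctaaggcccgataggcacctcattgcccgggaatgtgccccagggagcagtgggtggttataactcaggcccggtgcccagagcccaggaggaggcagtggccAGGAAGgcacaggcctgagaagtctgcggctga
KLK6, chr19:50969542-50969841, minus strand: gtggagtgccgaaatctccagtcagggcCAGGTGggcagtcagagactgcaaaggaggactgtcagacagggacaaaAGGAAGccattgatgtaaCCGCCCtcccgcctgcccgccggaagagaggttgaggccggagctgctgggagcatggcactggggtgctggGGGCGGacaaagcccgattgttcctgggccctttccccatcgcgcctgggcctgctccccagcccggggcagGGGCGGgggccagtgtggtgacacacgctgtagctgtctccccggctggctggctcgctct
KLK7, chr19:50983868-50984167, minus strand: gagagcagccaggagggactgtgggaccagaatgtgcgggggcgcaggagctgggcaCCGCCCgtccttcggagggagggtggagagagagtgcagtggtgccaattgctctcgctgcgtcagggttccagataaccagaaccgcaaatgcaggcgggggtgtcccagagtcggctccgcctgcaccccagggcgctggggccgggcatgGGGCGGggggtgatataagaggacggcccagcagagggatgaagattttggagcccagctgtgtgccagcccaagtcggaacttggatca
KLK10, chr19:51019812-51020111, minus strand: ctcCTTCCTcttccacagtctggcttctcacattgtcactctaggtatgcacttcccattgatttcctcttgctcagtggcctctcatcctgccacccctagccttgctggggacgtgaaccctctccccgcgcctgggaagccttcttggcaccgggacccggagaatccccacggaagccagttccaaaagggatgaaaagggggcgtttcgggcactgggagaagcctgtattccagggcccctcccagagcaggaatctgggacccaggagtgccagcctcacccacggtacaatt
KLK9, chr19:51009543-51009842, minus strand: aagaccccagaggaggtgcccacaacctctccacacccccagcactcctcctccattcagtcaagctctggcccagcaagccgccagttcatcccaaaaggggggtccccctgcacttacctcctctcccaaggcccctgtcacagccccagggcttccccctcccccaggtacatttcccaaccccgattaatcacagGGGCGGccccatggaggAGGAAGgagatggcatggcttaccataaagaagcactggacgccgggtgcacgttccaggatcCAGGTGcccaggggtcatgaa
KLK12, chr19:51034953-51035252, minus strand: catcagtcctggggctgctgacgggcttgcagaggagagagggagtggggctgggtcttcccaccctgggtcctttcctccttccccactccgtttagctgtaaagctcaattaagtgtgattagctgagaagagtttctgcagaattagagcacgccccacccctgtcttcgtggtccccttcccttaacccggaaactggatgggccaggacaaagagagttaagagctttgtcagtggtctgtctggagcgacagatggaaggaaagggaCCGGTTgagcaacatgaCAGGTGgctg

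A match describes letters only. In these windows KLK6 held the GC box 3 times, at positions −155, −83 and −11 from the start, and KLK7 held it 2 times and KLK9 once, while KLK5, KLK10 and KLK12 held none. Over all 16 member windows the GC box was in 10, covering 6 of 9 genes, against 45.0% of 35116 windows of the same length. Windows of a gene can overlap, so 1 site can be counted in several of them. The ETS motif was in 11 of 16, covering 8 of 9 genes, against 33.6%. The SNAI and ZEB box was in 7, covering 6 genes, against 20.6%. The grainyhead-like motif (KLK12) and the retinoid motif (KLK13) were each in 1, against 7.23% and 13.8%. The TATA box, the AP-1 site and the hormone receptor motif were in none, against 11.5%, 7.71% and 14.8%. Matches to different motifs did not overlap one another in the member windows. The abundant members did not share a motif that the others lacked, and their windows ranged in GC content from 59.0% (KLK10) to 66.3% (KLK6), beside 61.7% for KLK9 and 55.3% for KLK12, with a median of 58.7% over all windows.

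The known partners of these proteases were looked at through 7 lists of 154 genes, of which 85 passed the filter. The lists were written with earlier results of these data known. A share above that of all genes is therefore not read as a result about the lists. By the same size rule 17 of these (20%) were above the control with both hairpins and 11 (12.9%) below it, beside 5.29% and 4.5% of all tested genes. By edgeR's quasi-likelihood test of both hairpin libraries against the control none of the 85 passed an adjusted p of 0.05 over all genes, 30 had an unadjusted p below 0.05, and 18 passed with DESeq2. Over all genes 1549 (10.2%) had such an unadjusted p, and DESeq2 passed 531 (3.65%, with 1.64% higher and 2.01% lower). These shares describe all genes and make no test of a list. Over all 15132 genes edgeR called 6 (0.0397%), all lower. The median log2 fold of all tested genes was 0.01 with shBLACAT2#1 and 0.04 with shBLACAT2#2. The labels name no separate cultures, so a p-value measures only the spread between these libraries.

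Inhibitors of serine proteases were split. The Kazal inhibitors that act on kallikreins were nearly without reads: SPINK5 had 1, 0 and 9 counts, SPINK6 2, 0 and 1, and SPINK9 1, 0 and 1. Of 35 inhibitor genes 15 were tested, 3 exceeded the control 2-fold with both hairpins and 2 were lower by that size, and the list medians were 0.24 and −0.12. SLPI, a secreted inhibitor of leukocyte proteases, had 162, 1512 and 2579 counts (ratios 7.89 and 14.0; edgeR adjusted p = 0.0977). SERPINB2, an inhibitor of urokinase, had 4, 59 and 72 counts (12.5 and 15.8, edgeR adjusted p = 0.188). At 0.264 CPM in the control, SERPINB2 passed the filter only through the hairpin libraries. WFDC2, named outside the rule once its values were known, had 201, 1320 and 1062 counts. In the other direction SERPINE2, which encodes a secreted serpin, had 2759, 300 and 347 counts, 10.9-fold and 9.04-fold lower (edgeR adjusted p = 0.0696). DESeq2 passed 2 inhibitors higher and 2 lower (3.65% of all genes), and edgeR gave 5 an unadjusted p below 0.05 (10.2% of all genes). Without the filter 5 inhibitors were lower.

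Proteases that activate kallikreins or work beside them also went both ways. Of 24 listed, 13 were tested, 2 were at least 2-fold higher and 3 lower, with medians of 0.23 and 0.50. The membrane protease gene TMPRSS4 had 98, 2049 and 933 counts, 17.67 and 8.37 times the control, and PLAT, tissue plasminogen activator, had 3696, 13507 and 9820 (3.09 and 2.34). The urokinase gene PLAU had 6905, 3168 and 1967 counts, 2.58-fold and 3.99-fold lower, and PRSS23 1129, 231 and 394, 5.78-fold and 3.26-fold lower. Plasminogen itself, PLG, had 1, 2 and 4 counts. ST14, which encodes matriptase, a membrane protease upstream of kallikreins in skin, had 1951, 4916 and 3307 (2.13 and 1.49) and was likewise named with its values known. edgeR gave 5 of the 13 an unadjusted p below 0.05 (10.2% of all genes), and DESeq2 passed 2 higher and 2 lower (3.65% of all genes). With 1 hairpin alone 4 of the list were higher, whichever was left out.

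Of 4 genes for receptors that serine proteases switch on by cleavage, 2 were tested, and both were more than 2-fold lower with both hairpins. F2RL1, protease-activated receptor 2, had 1307 counts in the control, 218 with shBLACAT2#1 and 519 with shBLACAT2#2, 7.09-fold and 2.86-fold lower (edgeR log2 fold −2.03, SE 0.54, adjusted p = 0.269). F2R, the thrombin receptor, had 559, 70 and 130 counts, 9.45-fold and 4.89-fold lower (edgeR log2 fold −2.69, SE 0.50, adjusted p = 0.137). Neither passed edgeR's test over all genes, both had an unadjusted p below 0.05, and both passed with DESeq2. The other receptors of the family were sparse, F2RL2 with 12, 1 and 19 counts and F2RL3 with 0, 0 and 2.

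Among adhesion and barrier proteins that kallikreins can cut, several of the skin were nearly without reads and others were abundant. DSG1 had no counts, DSC1 1, 2 and 1, CDSN 0, 0 and 1, and CAMP 0, 0 and 5. The desmosomal genes DSG2 (5454, 6182 and 5234 counts), JUP (5446, 6198 and 5245) and DSC2 (920, 697 and 463), named with their values known, were within 2-fold of the control with shBLACAT2#1, as were DSG2 and JUP with shBLACAT2#2. Of 17 adhesion and barrier genes 9 were tested, and their medians were −0.16 and −0.24. The E-cadherin gene CDH1 had 1877, 5201 and 4565 counts (2.34 and 2.14 times the control), and the plakophilin gene PKP1, of desmosomes, 1026, 99 and 176 (12.3-fold and 6.63-fold lower). Fibronectin, FN1, had 908025, 303700 and 271305. These 3 were the members of the list past 2-fold with both hairpins. edgeR gave 3 an unadjusted p below 0.05 (10.2% of all genes), and DESeq2 passed 2, both lower (2.01% of all genes). Without shBLACAT2#1 the higher genes of the list numbered 4.

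Genes of squamous terminal differentiation differed in both directions. Of 36 listed 16 were tested, 3 were at least 2-fold higher and 1 lower, with medians of 0.12 and 0.93. SCEL, which encodes sciellin of the cornified envelope, had 0, 115 and 189 counts, at least 32.4-fold and 55.4-fold higher than a control of 3 counts. PPL, periplakin, had 954, 4340 and 5508 (3.84 and 5.08 times the control) and the keratin KRT4 5, 96 and 28 (16.23 and 4.93). SCEL and KRT4, at 0 and 0.329 CPM in the control, passed the filter only through the hairpin libraries. IVL, involucrin, had 1236, 549 and 284, 2.66-fold and 4.95-fold lower, and loricrin, LOR, had 0, 0 and 1. edgeR gave 4 an unadjusted p below 0.05 (10.2% of all genes), and DESeq2 passed 2 higher and 1 lower (3.65% of all genes). The list's higher genes numbered 8 without shBLACAT2#1 and 5 without shBLACAT2#2, and its lower genes 2 in both cases and without the filter.

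Among transcription factors of surface epithelium, 20 of 24 were tested, 6 were higher by the 2-fold rule and 1 lower, with medians of 0.53 and 1.27. GRHL3 had 74, 898 and 771 counts, 10.3 (8.08 to 13.2) and 9.16 (7.21 to 11.8) times the control, with an edgeR adjusted p of 0.0766. The ETS factor genes ELF3 (373, 3083 and 2542 counts; 6.98 and 5.99 times) and EHF (553, 2409 and 2648; 3.68 and 4.21 times) were also higher. TP63, the regulator of basal epithelial cells, had 85, 8 and 13 counts, 12.6-fold and 7.43-fold lower. edgeR gave 9 an unadjusted p below 0.05 (10.2% of all genes), and DESeq2 passed 3, all higher (1.64% of all genes). Without shBLACAT2#1 the higher genes numbered 12, while the lower genes numbered 0 with the filter at 5 CPM and 2 without it. Of 14 nuclear receptors 10 were tested and 2, RXRA (1235, 3592 and 3360 counts) and ESR2 (13, 34 and 43), were at least 2-fold higher. ESR2, at 0.856 CPM in the control, passed the filter only through the hairpin libraries. The list medians were 0.14 and 0.24, edgeR gave 2 an unadjusted p below 0.05 (10.2% of all genes), and DESeq2 passed none. With the filter at 5 CPM, or a prior count of 5, 1 of them was higher, and without shBLACAT2#2 1 was lower.

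**Figure D5:**
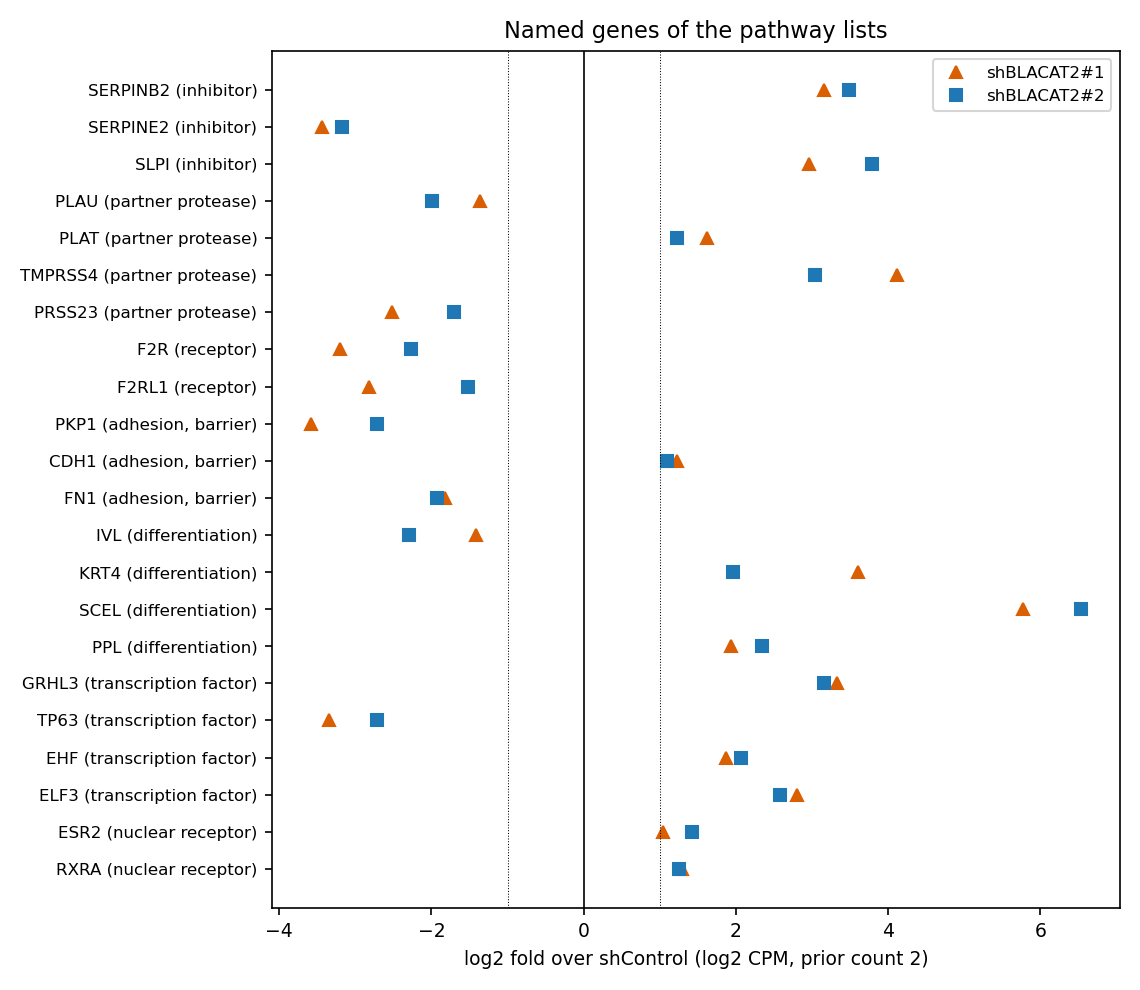
Log2 folds over shControl of genes named by rule from the 7 lists, with triangles for shBLACAT2#1 and squares for shBLACAT2#2 and dotted lines at 2-fold. The fold of SCEL depends on the prior count because its control had 0 counts. Both receptors, SERPINE2, PKP1 and TP63 lie to the left, and SLPI, TMPRSS4, GRHL3 and ELF3 to the right.

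Genes elsewhere in the genome whose pair of log2 folds lay nearest to that of the summed members (3.18 and 2.82) were taken over the 3 libraries by Euclidean distance. RAB27B, a regulator of secretory vesicles, was nearest at a distance of 0.0784, with 32, 379 and 265 counts (log2 folds 3.25 and 2.80). The tight junction gene CLDN3 (3.03 and 3.02), the ubiquitin ligase gene TRIM2 (2.90 and 2.77), RARRES1 (3.34 and 2.56) and the non-coding RP11-7K24.3 (2.96 and 2.61) followed, at distances of 0.246 to 0.302. CLDN3 and RP11-7K24.3, each at 0.461 CPM in the control, passed the filter only through the hairpin libraries. With 2 folds that share 1 control, such nearness describes these libraries only.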

How the data were processed

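RNA was measured in 3 libraries (shControl, n = 1; shBLACAT2, n = 2). The deposited table gives whole-number read counts per gene and FPKM made by the authors, per the file headers; FPKM served only for levels between genes. TopHat2 2.0.9 and hg38 are named in the submitters' processing notes; the counting tool, strand setting, annotation release and filters are not stated there or in the labels. The row of TGFB1 was broken over 4 lines and left out. Members and gene lists were chosen with earlier results of these data known. Counts were scaled with TMM factors (edgeR 4.0.16: 0.924, 1.02 and 1.06). Ratios carry exact conditional binomial 95% intervals, and a library at 0 was set at 3 counts. Log2 folds use log2 CPM with a prior count of 2, over genes that averaged 1 CPM or more. For the group comparison edgeR's quasi-likelihood test was used (two-sided, Benjamini-Hochberg over 15132 genes). It had 1 residual degree of freedom, from the hairpin pair, and the lone control was assumed to vary like them. It was run on simulated data with the same spread set for all libraries, which cannot check that assumption. DESeq2 1.42.0, other scalings, filters, prior counts and leaving out a hairpin were alternatives. Named genes were all members, the other kallikreins, up to 6 protein-coding neighbours within 250 kb, BLACAT2, up to 4 genes per list past 2-fold with both hairpins by the smaller fold (with none, up to 2 of highest level), and the 5 nearest genes in folds; others are marked as chosen later, and some genes that the rule names are not reported here. Gene models and transcripts are GENCODE release 29, in which 98.5% of gene identifiers were found.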

Additional observations from a re-analysis of the deposited data

How the results depend on the processing

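KLK5, KLK6, KLK7, KLK8 and KLK10 were at least 2-fold higher under all 8 alternatives run for that count (2 scalings, 2 filters, 2 prior counts, either hairpin left out). Leaving out a hairpin could not change this, since the rule already required 2-fold with each of them. Removing the filter could drop a gene only through the scaling factors. KLK7 and KLK8 passed the filter at 5 CPM only through the hairpin libraries. Of 30 alternative log2 folds of these 5 genes none changed sign, and 4 moved by more than the SD between hairpins: with library totals as the scaling, KLK5 to 2.97 (from 2.80) and KLK10 to 2.61 (from 2.44), and KLK8 (4.94) to 5.40 with a prior count of 0.5 and 4.32 with 5. Those of the 30 with a hairpin left out could do neither, because both hairpins were above the control and each lies within that SD of their mean. The summed members kept a log2 fold of 2.82 to 3.18 with either hairpin left out and 2.97 to 3.17 otherwise. Counts over all genes moved. With 1 hairpin alone, these counts and those of the lists could only stay or rise, because the rule then asked for 2-fold with that hairpin only. Genes at least 2-fold higher (800) numbered 1280 without the filter and 1199 to 1962 with 1 hairpin alone; genes lower (681) numbered 1525 without the filter, 443 with it at 5 CPM and 1116 to 1325 with 1 hairpin alone (1325 without shBLACAT2#1, 1116 without shBLACAT2#2). With library totals the split was 1030 higher and 553 lower, and the median log2 fold of all genes 0.14 and 0.24. Pathway genes higher (17) numbered 23 to 34 with 1 hairpin alone, 34 being without shBLACAT2#1, and 15 of 112 single-list counts moved by over 1.5 times. edgeR's test passed 6 genes, 0 without the filter (1461 at an unadjusted p below 0.05) and 0 with it at 5 CPM (1240), and DESeq2 passed 531. The test could not be fitted with 1 hairpin, since no residual degree of freedom remained. No paired analysis was possible because the control has 1 library. Depth limits KLK9, KLK11, KLK12, KLK13 and KLK14, and the ratios of KLK7 and KLK8 through 6 and 3 control counts. At any depth KLK9 is also limited by sharing 93.7% of its exonic bases with CTC-518B2.8.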
